A study of Arabidopsis thaliana with 12 samples.

Results

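The Aux/IAA proteins repress the transcriptional response to the plant hormone auxin. Described here are the transcripts of 10 of their genes, IAA1, IAA2, IAA3, IAA4, IAA6, IAA7, IAA14, IAA17, IAA19 and IAA29 in 4 genotypes. The members were set by name, with no threshold on their values, but with earlier results of these data known. They are 10 of the 32833 genes in the table of leaf transcript levels, and all 10 were among the 19110 genes kept for testing. The other 19 Aux/IAA genes of the family list, 12 of them kept, serve as comparison. The series asked what loss of PNET2_A or PNET2_B, membrane proteins of the plant nuclear envelope, adds to loss of CRWN1 and CRWN4, coiled-coil proteins of the nuclear lamina.

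Messenger RNA was sequenced from untreated Arabidopsis thaliana leaves in 12 libraries, 3 per genotype. The genotypes were crwn1;4 pnet2_a and crwn1;4 pnet2_b, in which CRISPR alleles of PNET2_A or PNET2_B were combined with knockouts of CRWN1 and CRWN4, then crwn1;4, which carries the same knockouts alone, and the Columbia (Col-0) wild type, WT. They are called the pnet2_a triple mutant, the pnet2_b triple mutant, the double mutant and WT below. Plant age is given as 3 weeks in the titles and as 4 weeks in the protocol, each preparation used about 50 mg of leaf, and the labels do not say how many CRISPR alleles or separate plants stand behind the replicates. All p-values therefore measure the spread between these libraries, which may be technical.

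Aux/IAA proteins are short-lived nuclear proteins that bind auxin response factors (ARFs) and recruit TOPLESS corepressors to the genes these factors occupy. Auxin joins an Aux/IAA protein to an F-box receptor, TIR1 or an AFB protein, and the Aux/IAA protein is then degraded, which frees the response factor. Many Aux/IAA genes are themselves switched on by auxin within minutes, so the family forms a feedback loop. In seedlings, IAA19 and IAA29 are also known targets of the PIF factors, which promote elongation in shade and warmth.

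The promoters of 4 members are shown because the results return to these genes. IAA29 fell in both triple mutants and has a library listed at 0, IAA2 was the only member called different between the triple mutants, and IAA6 and IAA19 shared the longest stretch of promoter sequence. Each runs 5′ to 3′ from 250 bases before to 50 bases after the annotated gene start in RefSeq's TAIR10.1 assembly, on the strand of the gene. Capitals mark the matches to any of 3 motifs searched on both strands, the auxin response element TGTCTC, its variant TGTCGG and the G-box CACGTG, which PIF factors among others bind. The windows are chr4:15583082-15583381 on the plus strand for IAA29, chr3:8182046-8182345 on the minus strand for IAA2, chr1:19673603-19673902 on the minus strand for IAA6, and chr3:5263751-5264050 on the plus strand for IAA19.
IAA29: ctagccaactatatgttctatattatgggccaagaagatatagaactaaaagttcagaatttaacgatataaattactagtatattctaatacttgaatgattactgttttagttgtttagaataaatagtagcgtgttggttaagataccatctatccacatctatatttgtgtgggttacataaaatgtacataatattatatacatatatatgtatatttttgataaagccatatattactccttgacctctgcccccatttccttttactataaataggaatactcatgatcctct
IAA2: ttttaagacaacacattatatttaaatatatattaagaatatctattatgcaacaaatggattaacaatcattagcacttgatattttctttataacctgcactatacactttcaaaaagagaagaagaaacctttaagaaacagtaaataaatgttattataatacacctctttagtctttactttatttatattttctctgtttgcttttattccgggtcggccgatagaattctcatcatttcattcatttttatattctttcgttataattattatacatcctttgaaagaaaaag
IAA6: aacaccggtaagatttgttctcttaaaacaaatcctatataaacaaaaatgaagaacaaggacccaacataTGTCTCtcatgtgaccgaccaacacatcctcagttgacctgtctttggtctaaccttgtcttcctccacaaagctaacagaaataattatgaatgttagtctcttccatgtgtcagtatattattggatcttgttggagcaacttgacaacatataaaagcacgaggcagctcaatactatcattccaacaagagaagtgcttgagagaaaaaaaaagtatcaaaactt
IAA19: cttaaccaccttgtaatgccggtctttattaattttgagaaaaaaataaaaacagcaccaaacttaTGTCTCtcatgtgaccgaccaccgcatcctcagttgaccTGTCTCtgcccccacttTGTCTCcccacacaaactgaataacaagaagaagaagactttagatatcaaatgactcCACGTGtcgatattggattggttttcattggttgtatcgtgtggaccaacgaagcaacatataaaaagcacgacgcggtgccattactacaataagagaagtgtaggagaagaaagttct

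The IAA6 and IAA19 windows share an identical run of 23 bases, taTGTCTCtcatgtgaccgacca, with an auxin response element at its left end. It starts 181 bases before the start of IAA6 and 186 bases before that of IAA19. The next longest run shared by any pair of the 10 windows was 13 bases, between IAA17 and IAA29. TGTCTC was found in 3 of the 10 windows, IAA1, IAA6 and IAA19, with 3 copies in IAA19, and in 14.2% of the 27443 promoters of the same length. TGTCGG was found in 1 of the 10, IAA1, and in 5.12% of all promoters. CACGTG was found in 3 of the 10, IAA7, IAA14 and IAA19, and in 7.68% of all promoters. The IAA2 and IAA29 windows held none of these motifs, which says nothing about sites elsewhere in these genes.

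The 10 genes lie on chromosomes 1, 3, 4 and 5 in TAIR10.1. IAA3 (AT1G04240, chr1:1128149-1129689, minus strand, 3 exons) and IAA17 (AT1G04250, chr1:1136078-1138663, plus strand, 5 exons) are divergent neighbours 6388 bases apart. IAA2 (AT3G23030, chr3:8180646-8182095, minus strand, 2 exons) and IAA7 (AT3G23050, chr3:8194606-8197161, plus strand, 3 to 5 exons by transcript) are divergent neighbours 12510 bases apart. IAA14 (AT4G14550, chr4:8347822-8350263, minus strand, 2 to 5 exons) and IAA1 (AT4G14560, chr4:8360996-8362033, plus strand, 2 exons) are likewise 10732 bases apart. In each pair no coding gene and 1 long noncoding RNA gene is annotated between them. IAA6 (AT1G52830, chr1:19672476-19673652, minus strand), IAA19 (AT3G15540, chr3:5264001-5265695, plus strand), IAA29 (AT4G32280, chr4:15583332-15584903, plus strand) and IAA4 (AT5G43700, chr5:17550179-17551715, plus strand) lie apart from other members. IAA3 overlaps AT1G04230 on the opposite strand, and the other 9 overlap no annotated gene. The longest identical stretch between a member's gene sequence, introns included, and that of another Aux/IAA gene was 19 to 41 bases long. The read length, which decides whether such stretches can misplace a read, is not given in the sources used here.

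Values are FPKM, fragment counts scaled for gene length and for the mapped fragments of each library, which allows levels to be compared between genes. The library totals were 622263 to 669711 FPKM, a library had 19841 to 21022 genes above 0, and how many reads lie behind it is unknown. CRWN1 averaged 1.67, 1.75 and 1.87 FPKM in the pnet2_a triple, pnet2_b triple and double mutants, against 12.4 FPKM in WT, and CRWN4 averaged 1.56, 1.51 and 1.26 FPKM, against 7.36 FPKM in WT. The PNET2 alleles themselves were not checked in these values. One library stood apart: on the first principal component, with 65.0% of the variance, replicate 3 of the double mutant lay at -20.8, against -35.9 and -31.9 for the other double mutant libraries, 29.3 to 46.9 for the triple mutants and -46.9 to -45.4 for WT. The median gene differed by 0.11 on the log2 scale between the pnet2_a triple and double mutants and by 0.23 between the pnet2_b triple and double mutants, so the text says where rescaling the libraries by median ratios changes a call or a direction.

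IAA7, known as AXR2 from an auxin-resistant mutant, was the most abundant of the 10 transcripts in every genotype, and IAA6 and IAA29 were the scarcest. In WT the order of the means was IAA7 at 67.8 ± 4.06, IAA3 at 30.9 ± 9.38, IAA4 at 28.5 ± 6.75, IAA2 at 23.0 ± 4.38, IAA17 at 15.1 ± 2.23, IAA1 at 9.72 ± 0.653, IAA19 at 5.90 ± 0.608, IAA14 at 5.34 ± 0.344, IAA29 at 3.22 ± 0.232 and IAA6 at 2.47 ± 1.37 FPKM (SD, n = 3). The WT libraries of IAA2, IAA3 and IAA4 overlapped, as did those of IAA19 and IAA14 and those of IAA29 and IAA6, so the order within each of these sets is not larger than their spread. The 10 members together summed to 143.0 ± 7.92 FPKM in the pnet2_a triple mutant, 169.0 ± 10.6 FPKM in the pnet2_b triple mutant, 219.0 ± 1.94 FPKM in the double mutant and 191.8 ± 22.3 FPKM in WT (SD, n = 3 each). Each triple mutant library was below each double mutant library in this sum. IAA7 made up 41.5%, 39.2%, 37.8% and 35.6% of the sum in the pnet2_a triple, pnet2_b triple, double mutant and WT means. In bulk leaf RNA, fewer cells that transcribe a gene and less RNA per cell cannot be told apart.

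**Figure D1:**
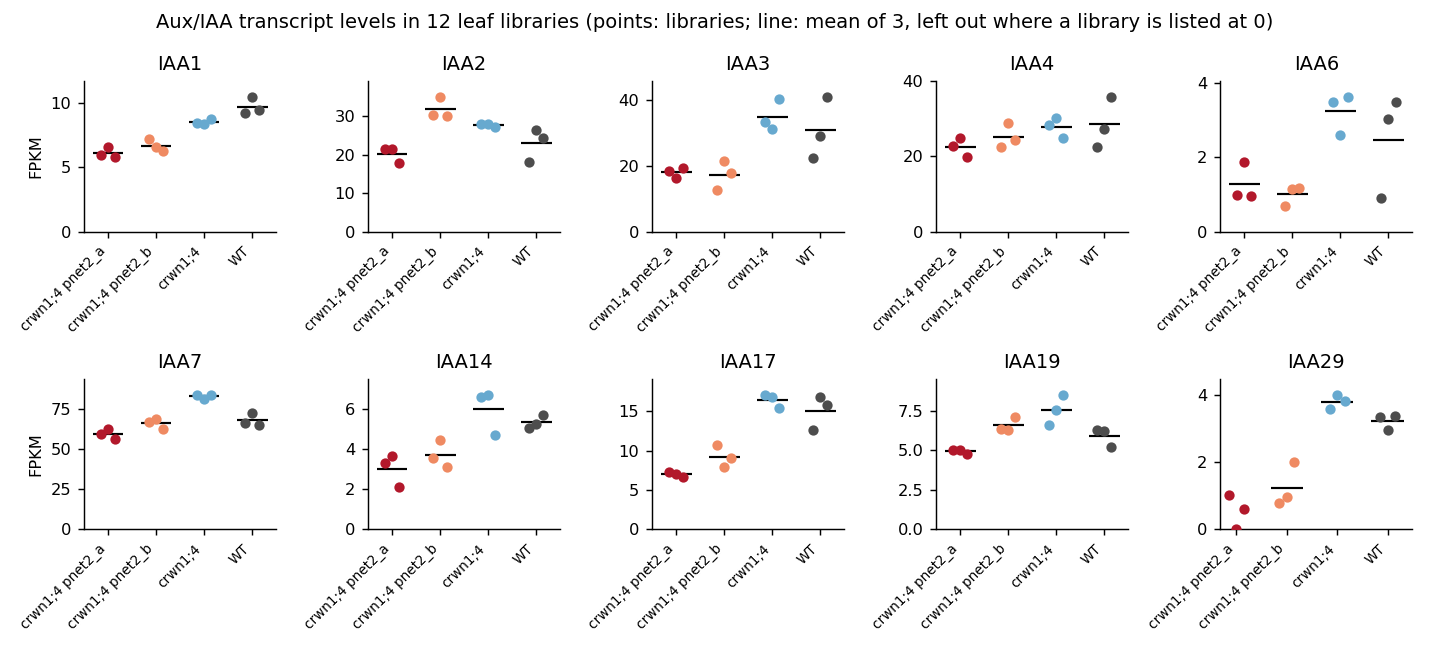
FPKM (vertical axes, each starting at 0) of the 10 Aux/IAA genes in the pnet2_a triple mutant, the pnet2_b triple mutant, the double mutant and WT. Points are single libraries and lines are means of 3, left out for IAA29 in the pnet2_a triple mutant, where a library is listed at 0. IAA1, IAA3, IAA14, IAA17 and IAA29 separate both triple mutants from the other genotypes, and IAA2 is higher in the pnet2_b than in the pnet2_a triple mutant.

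With pnet2_a added to crwn1;4, 9 of the 10 Aux/IAA transcripts fell and none rose. Over all genes tested in this comparison 32.1% were called at a limma adjusted p below 0.05, with 22.9% higher and 9.2% lower. The pnet2_a libraries lay below all double mutant libraries for 9 members, where 14.1% of all genes had such a gap in that direction. They lay above them for none, as against 32.7% of all genes. The median log2 change of the 10 members was -0.66 and that of all genes was 0.11. After median-ratio scaling all 10 fell, where 15.6% of all genes were higher and 14.5% lower. Changes are on the log2(FPKM + 1) scale, which understates those of low genes.

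Among the members best known from auxin-resistant mutants, IAA17 fell most firmly. IAA17, or AXR3, had 7.28, 7.04 and 6.68 FPKM in the pnet2_a triple mutant, 10.7, 7.85 and 9.01 FPKM in the pnet2_b triple mutant, 17.1, 16.8 and 15.4 FPKM in the double mutant and 12.6, 16.9 and 15.8 FPKM in WT. The pnet2_a libraries were the lowest 3 of the 12 and both triple mutants lay below all other libraries. The pnet2_a mean was 42.6% of the double mutant mean, a log2 change of -1.12 (SE 0.12, limma adjusted p = 7.99e-06).

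IAA7 had 59.3, 62.7 and 55.9 FPKM in the pnet2_a triple mutant, 67.03, 68.7 and 62.7 FPKM in the pnet2_b triple mutant, 83.4, 81.1 and 83.7 FPKM in the double mutant and 66.2, 72.4 and 64.7 FPKM in WT. The double mutant libraries stood above all others, and its fall in the pnet2_a triple mutant was to 71.6% of the double mutant mean, a log2 change of -0.48 (SE 0.07, limma adjusted p = 7.15e-05). IAA14, known as SLR for its role in lateral root initiation, had 3.31, 3.65 and 2.12 FPKM in the pnet2_a triple mutant, 3.58, 4.46 and 3.12 FPKM in the pnet2_b triple mutant, 6.60, 6.71 and 4.72 FPKM in the double mutant and 5.05, 5.25 and 5.72 FPKM in WT. Its lowest double mutant library, replicate 3, still lay above every triple mutant library. The pnet2_a mean was 50.4% of the double mutant mean (log2 change -0.81, SE 0.17, limma adjusted p = 0.00203).

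IAA3, or SHY2, which limits cell division in the root meristem, had 18.4, 16.2 and 19.5 FPKM in the pnet2_a triple mutant, 12.7, 21.4 and 17.8 FPKM in the pnet2_b triple mutant, 33.3, 31.4 and 40.5 FPKM in the double mutant and 22.5, 29.0 and 41.0 FPKM in WT. No triple mutant library reached the lowest library of either other genotype, while WT spread widely. The pnet2_a mean was 51.5% of the double mutant mean (log2 change -0.92, SE 0.19, limma adjusted p = 0.00241). AT1G04230, which overlaps IAA3 on the other strand, had 8.53, 7.98 and 9.94 FPKM in the pnet2_a triple mutant, 11.6, 11.8 and 10.4 FPKM in the pnet2_b triple mutant and 11.6, 11.9 and 9.32 FPKM in the double mutant. The libraries were strand-specific, but whether the counting used strand is not given in the sources used here, so reads of this pair may have been shared.

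IAA6 and IAA19, whose promoter windows share the longest identical run, were both among the 9 members that fell with pnet2_a. IAA6, or SHY1, had 0.972, 1.88 and 0.961 FPKM in the pnet2_a triple mutant, 0.697, 1.15 and 1.17 FPKM in the pnet2_b triple mutant, 3.49, 2.60 and 3.62 FPKM in the double mutant and 0.908, 3.02 and 3.48 FPKM in WT. One WT library, replicate 1, was as low as the triple mutants. The pnet2_a mean was 39.3% of the double mutant mean (log2 change -0.92, SE 0.27, limma adjusted p = 0.0198), and this call ended without pnet2_a replicate 1 or 3 (adjusted p = 0.0692 and 0.072) or double mutant replicate 1 or 3 (0.0619 and 0.059). IAA19, or MSG2, which acts in the bending of the hypocotyl, had 5.02, 5.02 and 4.77 FPKM in the pnet2_a triple mutant, 6.36, 6.29 and 7.11 FPKM in the pnet2_b triple mutant, 6.58, 7.57 and 8.50 FPKM in the double mutant and 6.26, 6.24 and 5.196 FPKM in WT. The pnet2_a libraries were the lowest 3 of the 12. The pnet2_a mean was 65.4% of the double mutant mean (log2 change -0.52, SE 0.11, limma adjusted p = 0.00237).

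IAA29, with IAA6 the scarcest member in the triple mutants, also fell. It had 1.00, 0 and 0.613 FPKM in the pnet2_a triple mutant, 0.770, 0.945 and 1.999 FPKM in the pnet2_b triple mutant, 3.57, 3.99 and 3.80 FPKM in the double mutant and 3.34, 2.95 and 3.37 FPKM in WT. All 6 triple mutant libraries lay below all 6 others, and replicate 2 of the pnet2_a triple mutant is listed at 0. Against the double mutant the fitted log2 change with pnet2_a was -1.69 (SE 0.24, limma adjusted p = 9.36e-05). The size and its rank depend on the pseudocount: it was the largest of the 10 with a pseudocount of 1 and with 0.1 (-3.18), but with 5 it was -0.67, behind IAA17 at -0.835 and IAA3 at -0.793.

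The remaining members were IAA1, IAA2 and IAA4. IAA1, or AXR5, had 5.95, 6.58 and 5.77 FPKM in the pnet2_a triple mutant, 7.20, 6.58 and 6.29 FPKM in the pnet2_b triple mutant, 8.48, 8.41 and 8.73 FPKM in the double mutant and 9.23, 10.5 and 9.46 FPKM in WT. The genotypes ranked without overlap between triple mutants, double mutant and WT, and the pnet2_a mean was 71.4% of the double mutant mean (log2 change -0.43, SE 0.09, limma adjusted p = 0.00273). IAA2, an early auxin-induced gene, had 21.4, 21.5 and 18.0 FPKM in the pnet2_a triple mutant, 30.4, 35.0 and 30.1 FPKM in the pnet2_b triple mutant, 28.1, 28.1 and 27.2 FPKM in the double mutant and 18.1, 26.4 and 24.5 FPKM in WT. The pnet2_a mean was 73.0% of the double mutant mean (log2 change -0.44, SE 0.12, limma adjusted p = 0.0112), a call that ended without pnet2_a replicate 3 (adjusted p = 0.0575).

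IAA4, also auxin-induced, had 22.6, 24.9 and 19.9 FPKM in the pnet2_a triple mutant, 22.6, 28.8 and 24.4 FPKM in the pnet2_b triple mutant, 28.4, 30.3 and 24.8 FPKM in the double mutant and 22.4, 27.4 and 35.7 FPKM in WT. The genotypes overlapped, and the log2 change with pnet2_a was -0.30 (SE 0.14, limma adjusted p = 0.131). After median-ratio scaling it was -0.41 and passed (adjusted p = 0.0291). Without replicate 3 of the double mutant, the library that stood apart, 8 members fell with pnet2_a, IAA6 being the one lost. With any 1 library left out, 4726 to 6334 of all genes tested were called with pnet2_a against the double mutant.

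With pnet2_b added to crwn1;4, 7 of the same 10 transcripts fell and none rose. In this comparison 47.5% of all genes were called, 38.8% higher and 8.63% lower, and the median log2 change was -0.44 for the members and 0.23 for all genes. The pnet2_b libraries lay below all double mutant libraries for 7 members, as for 11.1% of all genes, and above them for 1, IAA2, as for 46.4% of all genes. IAA29 had 32.7% of the double mutant mean (log2 change -1.13, SE 0.24, limma adjusted p = 0.00145), and with a pseudocount of 5 its log2 change was -0.499, smaller than those of IAA3 and IAA17 at -0.857 and -0.598. IAA6 had 31.0% (log2 change -1.08, SE 0.27, limma adjusted p = 0.00514) and IAA3 had 49.4% (log2 change -0.999, SE 0.19, limma adjusted p = 0.000832). IAA17 had 55.9% (log2 change -0.78, SE 0.12, limma adjusted p = 0.000108). Smaller falls were those of IAA14 to 61.9%, IAA1 to 78.3% and IAA7 to 79.9% of the double mutant mean (limma adjusted p = 0.0123, 0.0125 and 0.00112). The call of IAA14 ended without pnet2_b replicate 3 or double mutant replicate 1 (adjusted p = 0.0555 and 0.0501), that of IAA1 without pnet2_b replicate 3 (0.0508) and that of IAA29 with a pseudocount of 0.1 (0.0544).

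The 3 members that did not pass with pnet2_b were IAA2, IAA4 and IAA19. IAA2 differed by a log2 of 0.19 (SE 0.12, limma adjusted p = 0.211), which turned to -0.056 after median-ratio scaling. IAA4 differed by -0.14 (limma adjusted p = 0.447) and IAA19 by -0.17 (limma adjusted p = 0.223). After median-ratio scaling IAA4 and IAA19 passed, at -0.38 and -0.39 (adjusted p = 0.0356 and 0.0138), so that 9 members fell, where 18.3% of all genes were higher and 17.9% lower. Without replicate 3 of the double mutant 7 members fell. With any 1 library left out, 7536 to 9261 of all genes tested were called with pnet2_b against the double mutant. Both triple mutants are set against the same double mutant libraries, so the falls they have in common are not independent of each other.

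**Figure D2:**
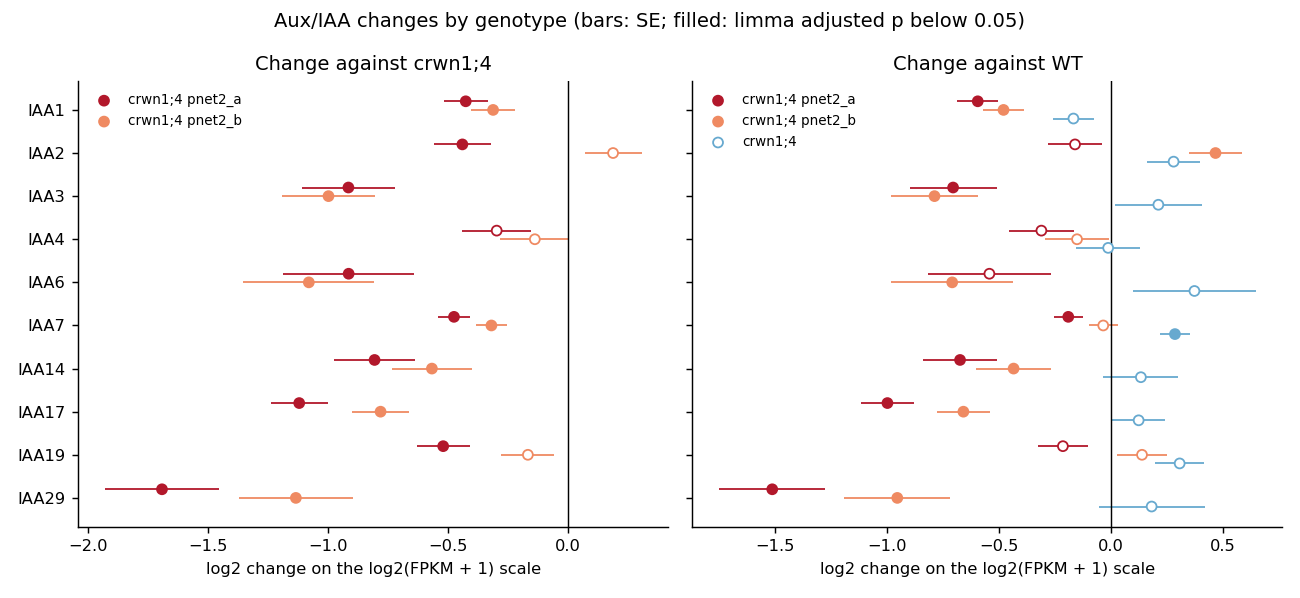
Log2 change on the log2(FPKM + 1) scale (horizontal axes) of the 10 Aux/IAA genes in the triple mutants against the double mutant (left) and in all 3 mutants against WT (right). Points are fitted changes over 3 libraries a genotype, bars are standard errors, and filled points have a limma adjusted p below 0.05. Against the double mutant, 9 points are filled for the pnet2_a triple mutant and 7 for the pnet2_b triple mutant, all left of 0.

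IAA2 was the 1 member of 10 called different between the triple mutants, where 2.88% of all genes were called, 2.12% higher and 0.754% lower in the pnet2_b triple mutant. Its mean was 31.9 ± 2.76 FPKM in the pnet2_b triple mutant and 20.3 ± 2.03 FPKM in the pnet2_a triple mutant (SD, n = 3 each), and every pnet2_b library lay above every pnet2_a library. The log2 difference was 0.63 (SE 0.12, limma adjusted p = 0.014), and 0.50 after median-ratio scaling (adjusted p = 0.023), where 0.691% of all genes were higher and 2.03% lower. The call ended without pnet2_a replicate 3 (log2 difference 0.55, limma adjusted p = 0.0671) or pnet2_b replicate 2 (log2 difference 0.56, limma adjusted p = 0.0697). IAA7, IAA17 and IAA19 also had all pnet2_b libraries above all pnet2_a libraries, which makes 4 members without overlap, as for 26.1% of all genes, and none lay below, as for 4.33%. Their log2 differences were 0.16, 0.34 and 0.35 (limma adjusted p = 0.187, 0.129 and 0.0983). For the other 6 members the libraries overlapped, with differences between -0.17 for IAA6 and 0.56 for IAA29.

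With loss of CRWN1 and CRWN4 alone, few of these transcripts passed the test. In the double mutant against WT, 1 member rose and none fell, where 3.0% of all genes were called, 2.41% higher and 0.591% lower. After median-ratio scaling 1 rose and none fell, where 2.81% of all genes were higher and 0.811% lower. The riser was IAA7, with a double mutant mean of 82.8 ± 1.42 FPKM and a WT mean of 67.8 ± 4.06 FPKM (SD, n = 3 each; log2 change 0.29, SE 0.07, limma adjusted p = 0.0274). That call was lost in 7 of 23 alternatives, with adjusted p from 0.0172 to 0.107, and it ended without any 1 of the 3 double mutant libraries (0.0808, 0.0501 and 0.0928 without replicates 1, 2 and 3) or without WT replicate 1 or 3 (0.0832 and 0.0998). The double mutant libraries lay above all WT libraries for 4 members, IAA2, IAA7, IAA19 and IAA29, as for 11.8% of all genes, and below them for 1, IAA1, as for 7.99%. IAA2 had a log2 change of 0.28 (limma adjusted p = 0.243), IAA19 of 0.31 (0.163), IAA29 of 0.18 (0.747) and IAA1 of -0.17 (0.374). The changes of IAA3, IAA4, IAA6, IAA14 and IAA17 lay between -0.01 and 0.37, with adjusted p from 0.519 to 0.982.

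Against WT, 6 members fell and none rose in the pnet2_a triple mutant, where 35.9% of all genes were called, 25.4% higher and 10.5% lower. The triple mutant libraries lay below all WT libraries for 7 members, as for 14.5% of all genes, and above them for none, as against 31.9%. After median-ratio scaling 8 members fell and none rose, where 18.8% of all genes were higher and 16.2% lower. IAA29 changed by a log2 of -1.51 (SE 0.24, limma adjusted p = 0.000186). IAA17 fell to 46.5% of the WT mean (log2 change -0.997, SE 0.12, limma adjusted p = 1.31e-05). IAA14, IAA3, IAA1 and IAA7 fell to 56.7%, 58.5%, 62.8% and 87.5% of the WT mean (limma adjusted p = 0.00584, 0.011, 0.000164 and 0.0336). The IAA7 call ended without pnet2_a replicate 1 or 3 or WT replicate 2 (adjusted p = 0.0732, 0.138 and 0.12), as well as with TPM (0.0972), with no trend (0.0772) and on the 2 genotypes compared (0.0772). The IAA3 call ended without WT replicate 3 (0.0507). The other 4, IAA2, IAA4, IAA6 and IAA19, had log2 changes of -0.16, -0.31, -0.54 and -0.21 (limma adjusted p = 0.322, 0.111, 0.141 and 0.149). Of these, IAA4 and IAA19 passed after median-ratio scaling, at -0.41 and -0.31 (limma adjusted p = 0.0242 and 0.0448). Without WT replicate 1, in which IAA1, IAA2, IAA3, IAA4, IAA6, IAA14 and IAA17 had their lowest WT values, IAA2, IAA4 and IAA6 passed as well (adjusted p = 0.0224, 0.0189 and 0.00416).

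In the pnet2_b triple mutant 6 members fell against WT and 1 rose, where 47.7% of all genes were called, 38.4% higher and 9.25% lower. The libraries lay below all WT libraries for 5 members, as for 11.1% of all genes, and above them for 2, IAA2 and IAA19, as for 43.5%. After median-ratio scaling 8 members fell and none rose, where 20.3% of all genes were higher and 18.9% lower. IAA29 had 38.5% of the WT mean (log2 change -0.95, SE 0.24, limma adjusted p = 0.0044), a call lost with a pseudocount of 0.1 (adjusted p = 0.0928). IAA3 had 56.1%, IAA17 60.9% and IAA1 68.8% (limma adjusted p = 0.00406, 0.000385 and 0.000677). IAA6 and IAA14 fell to 40.6% and 69.7% near the threshold (limma adjusted p = 0.0458 and 0.0448). The IAA6 call was lost in 14 of 22 alternatives and the IAA14 call in 9 of 23, with adjusted p up to 0.186 and 0.159. IAA2 rose to 138.5% (log2 change 0.47, SE 0.12, limma adjusted p = 0.00495), but did not pass after median-ratio scaling (log2 change 0.23, adjusted p = 0.0979). IAA7 differed by -0.03 and IAA4 by -0.15 (limma adjusted p = 0.699 and 0.413), and both passed as falls after median-ratio scaling, at -0.27 and -0.38 (0.00579 and 0.0314). IAA19 differed by 0.14 (limma adjusted p = 0.318), and by -0.07 after that scaling.

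Comparing neighbours within a library removes library scaling. The IAA2 to IAA7 ratio was 0.361, 0.343 and 0.321 in the pnet2_a triple mutant, 0.454, 0.510 and 0.480 in the pnet2_b triple mutant, 0.337, 0.347 and 0.325 in the double mutant and 0.273, 0.365 and 0.379 in WT. The pnet2_b libraries stood above the other 9. Against each other genotype the 2-sided exact permutation p was 0.1, the smallest that 3 libraries against 3 allow, and 0.6 after adjustment over 18 tests, 3 pairs in 6 comparisons. The mean log2 ratio of IAA1 to IAA14 was 1.05, 0.86, 0.52 and 0.86 in the pnet2_a triple, pnet2_b triple, double mutant and WT. That of IAA3 to IAA17 was 1.36, 0.89, 1.09 and 1.00 in the same genotypes. The genotypes overlapped for both ratios, and no test of the 18 could pass the threshold in this design.

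**Figure D3:**
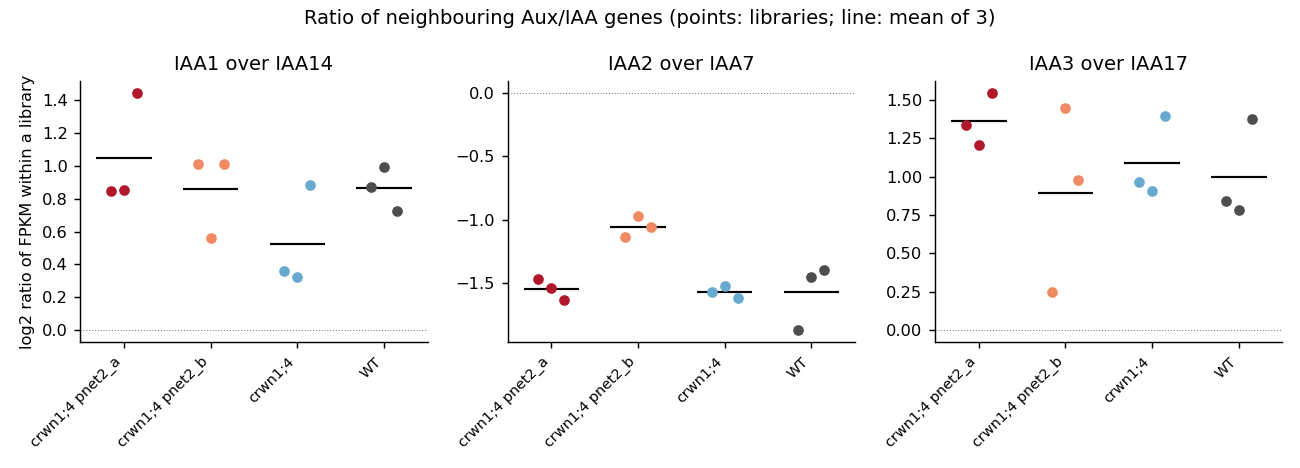
Log2 ratio of FPKM within a library (vertical axes) for the 3 pairs of neighbouring Aux/IAA genes in the pnet2_a triple mutant, the pnet2_b triple mutant, the double mutant and WT. Points are libraries, lines are means of 3 and the dotted line is a ratio of 1. The IAA2 to IAA7 ratio is higher in the 3 pnet2_b libraries, with a mean of -1.06, than in the other 9, with means of -1.55, -1.57 and -1.57.

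Of the other 12 Aux/IAA genes kept, 3 fell and none rose in the pnet2_a triple mutant against the double mutant, where 22.9% of all genes rose and 9.2% fell. In the pnet2_b triple mutant 4 rose and none fell, where 38.8% of all genes rose and 8.63% fell. After median-ratio scaling 15.6% of all genes rose and 14.5% fell with pnet2_a, and 18.3% rose and 17.9% fell with pnet2_b. The 12 genes then had 4 falls and no rise with pnet2_a, and 2 rises and 3 falls with pnet2_b. The direction with pnet2_b thus depends on the scaling. Before that scaling the median log2 changes of the 12 were -0.10 and 0.26, beside 0.11 and 0.23 for all genes. IAA16, of the same clade as IAA7, IAA14 and IAA17, fell to 42.5 ± 1.01 FPKM in the pnet2_a triple mutant, against 57.9 ± 3.12 FPKM in the double mutant (SD, n = 3 each; log2 change -0.44, limma adjusted p = 0.000834). IAA8 fell to 89.1 ± 4.26 FPKM, against 108.1 ± 1.504 FPKM (log2 change -0.28, limma adjusted p = 0.0059), and IAA5, listed at 0 in part of the libraries, was the last of the 3. With pnet2_b, IAA12 and IAA26 rose by log2 changes of 0.50 and 0.62 (limma adjusted p = 0.000737 and 0.000513), as did IAA28 and IAA9, which did not pass after median-ratio scaling. None of the 12 was called in the double mutant against WT by limma, where only 3.0% of all genes were called. The list was not tested against the 10 members.

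The counts in this paragraph stand beside 22.9% of all genes higher and 9.2% lower with pnet2_a, and 38.8% higher and 8.63% lower with pnet2_b. Counts after median-ratio scaling stand beside 15.6% higher and 14.5% lower with pnet2_a, and 18.3% higher and 17.9% lower with pnet2_b. Upstream of the repressors stand the auxin receptors. Of 6 kept, 1 rose and 1 fell in the pnet2_a triple mutant against the double mutant and 2 rose with pnet2_b, while after median-ratio scaling none rose with either allele and 2 fell with pnet2_a, AFB4 being the second. The faller before scaling was AFB1, at 11.6 ± 1.22 FPKM in the pnet2_a triple mutant and 16.0 ± 1.23 FPKM in the double mutant (SD, n = 3 each; log2 change -0.43, limma adjusted p = 0.0188). The rises of AFB5 with either allele and of AFB3 with pnet2_b did not pass after median-ratio scaling. Of 4 auxin synthesis genes kept, of 14 listed, TAR2, a tryptophan aminotransferase, was the 1 that fell in each triple mutant, by 0.63 with pnet2_a and 0.42 with pnet2_b on the log2 scale (limma adjusted p = 0.00146 and 0.0142). Of 12 transport genes, 6 fell and 1 rose with pnet2_a, and 5 fell and 2 rose with pnet2_b (7 and 6 falls and 1 rise each after median-ratio scaling). The efflux carrier PIN7 had 31.0 ± 4.14, 25.3 ± 1.60 and 43.8 ± 2.003 FPKM in the pnet2_a triple, pnet2_b triple and double mutants (SD, n = 3 each; limma adjusted p = 0.000866 and 1.22e-05). ABCB4, another auxin transporter, had 7.29 ± 0.397, 9.04 ± 0.790 and 1.44 ± 0.130 FPKM in the same order (log2 changes 1.76 and 2.04, limma adjusted p = 1e-05 and 1.41e-06).

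Among the partners of the repressors, 2 of 5 TOPLESS corepressor genes rose with pnet2_a and 4 with pnet2_b, and none fell (2 and 3 rises and no fall after median-ratio scaling). Of all genes, 22.9% rose and 9.2% fell with pnet2_a, and 38.8% rose and 8.63% fell with pnet2_b. After median-ratio scaling these shares were 15.6% and 14.5% with pnet2_a, and 18.3% and 17.9% with pnet2_b. TPR3 had 6.67 ± 0.429, 8.89 ± 0.151 and 3.84 ± 0.325 FPKM in the pnet2_a triple, pnet2_b triple and double mutants, and TPL had 25.7 ± 1.06, 30.9 ± 0.405 and 19.7 ± 0.480 FPKM (SD, n = 3 each; limma adjusted p at most 0.000828). Of 15 ARF genes, 4 rose and 2 fell with pnet2_a, and 4 rose and 1 fell with pnet2_b, but after median-ratio scaling 1 rose and 5 fell with pnet2_a and 3 rose and 2 fell with pnet2_b. ARF11 fell by 0.94 and 0.95 on the log2 scale (limma adjusted p = 0.000522 and 0.000288), and ARF5, an activator of auxin responses, rose by 0.41 and 0.65 (0.0186 and 0.000577).

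Other auxin-responsive genes went in both directions, beside 22.9% of all genes rising and 9.2% falling with pnet2_a, and 38.8% and 8.63% with pnet2_b. Of 7 genes of auxin inactivation kept, 3 rose with pnet2_a, 4 with pnet2_b and none fell, while after median-ratio scaling 3 rose with each and 1 fell with pnet2_b. GH3.3, an enzyme that conjugates auxin to amino acids, had 4.64 ± 0.283, 4.36 ± 0.245 and 1.88 ± 0.620 FPKM in the pnet2_a triple, pnet2_b triple and double mutants (SD, n = 3 each; limma adjusted p = 0.000428 and 0.0005). Of 21 SAUR genes, whose products promote cell expansion, 10 fell and 1 rose with pnet2_a, and 13 fell and 1 rose with pnet2_b (12 and 15 falls after median-ratio scaling). SAUR16 had 37.5 ± 3.57, 35.1 ± 1.93 and 55.7 ± 2.72 FPKM in these genotypes (limma adjusted p = 0.000156 and 2.81e-05), and SAUR9 was the riser in each, although its rise with pnet2_a did not pass after median-ratio scaling. Many of the SAUR genes counted lie in tandem clusters of near-identical copies, so their separate values are uncertain. Of 10 PIF and shade response genes, 6 fell and 1 rose with pnet2_a, and 4 fell and 1 rose with pnet2_b (6 and 7 falls after median-ratio scaling, with no rise and 1 rise). PIF7 had 9.78 ± 0.640, 10.14 ± 0.669 and 15.4 ± 0.930 FPKM in these genotypes (limma adjusted p = 0.000105 and 0.000135), while the shade-induced ATHB2 rose with pnet2_b (log2 change 0.82, limma adjusted p = 0.000526).

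**Figure D4:**
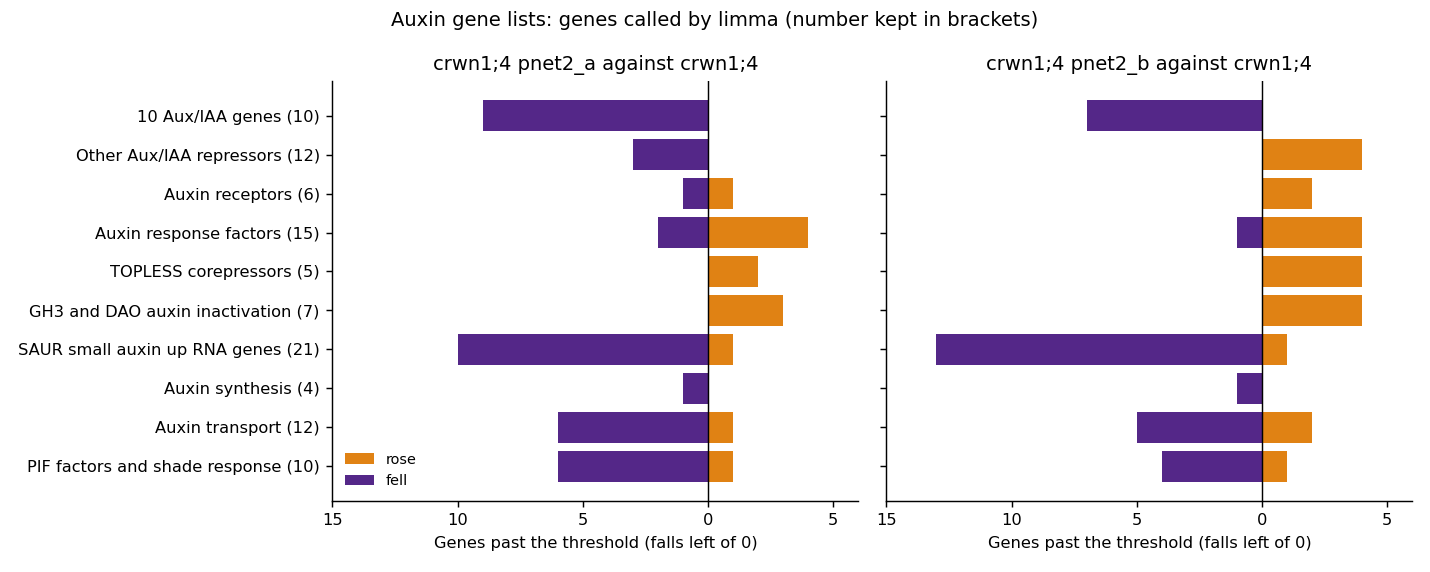
Number of genes past a limma adjusted p of 0.05 (horizontal axes, falls left of 0 and rises right of it) for the 10 Aux/IAA genes and 9 lists of auxin genes, in the pnet2_a triple mutant (left) and the pnet2_b triple mutant (right) against the double mutant. The number of genes kept stands in brackets. Of all genes tested, 22.9% rose and 9.2% fell with pnet2_a, and 38.8% rose and 8.63% fell with pnet2_b. The 10 Aux/IAA genes show 9 and 7 falls and no rise, and the SAUR genes 10 and 13 falls. The TOPLESS and auxin inactivation lists hold no fall. After median-ratio scaling 1 auxin inactivation gene fell with pnet2_b, as did 17.9% of all genes.

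Some other transcript groups also differed between the genotypes, and their part in the Aux/IAA changes was not tested. The 22 photosynthesis transcripts of mesophyll cells summed to 88800 to 94920 FPKM in the pnet2_a triple mutant, 70140 to 74440 FPKM in the pnet2_b triple mutant, 110100 to 119200 FPKM in the double mutant and 109700 to 114700 FPKM in WT. The salicylic acid markers PR1, PR2 and PR5 summed to 936.3 to 1256, 1010 to 1399, 77.0 to 196.4 and 14.8 to 23.3 FPKM in the same genotypes, and the highest double mutant value was that of replicate 3. The 10 guard cell and stomatal markers summed to 29.9 to 35.6 and 36.5 to 39.7 FPKM in the pnet2_a and pnet2_b triple mutants, against 40.3 to 45.7 FPKM in the double mutant and 52.4 to 55.3 FPKM in WT. Single markers went both ways against the double mutant, with 9 means lower and that of MUTE higher in the pnet2_a triple mutant, and 6 lower and 4 higher (FAMA, MUTE, TMM and KAT2) in the pnet2_b triple mutant. The 9 markers of dividing cells summed to 67.1 to 81.6, 80.0 to 90.2, 51.1 to 60.9 and 63.5 to 71.1 FPKM, with the meristem gene WUS listed at 0 throughout. The 12 vascular markers overlapped between the pnet2_a triple and double mutants, at 186.3 to 194.6 and 166.1 to 203.0 FPKM, and stood at 227.8 to 262.8 FPKM in the pnet2_b triple mutant and 182.3 to 245.5 FPKM in WT. Single vascular means against the double mutant were mixed, with 7 higher and 5 lower in the pnet2_a triple mutant, and 10 higher and 2 lower in the pnet2_b triple mutant. The 3 epidermis markers summed to 155.0 to 172.5, 200.9 to 216.0, 201.8 to 219.4 and 201.3 to 254.7 FPKM. Of 7 root markers 4, 4, 5 and 5 were listed at 0 in all libraries of a genotype, with sums of 10.03 to 16.5 FPKM, and the 6 flower markers summed to 6.14 FPKM at most.

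The genes whose profiles over the 12 libraries lay closest to a member's were found among 5894 named genes averaging at least 5 FPKM, by the root mean square difference of centred log2 values. IAA4, which passed in no comparison over the 12 libraries as deposited, was left out. For IAA7 these were LON2 at 0.06 and PIP1B at 0.07, and for IAA1 GAMMA-TIP and CYP86A8, both at 0.09. For IAA19 they were TCP14 and MYBL2, both at 0.10, and for IAA17 DELTA-TIP at 0.11 and BZIP34 at 0.14. For IAA2 they were KCS8 at 0.13 and TPS8 at 0.14, and for IAA14 TPD1 at 0.14 and EPR1 at 0.15. The distances were larger for IAA3 (RABG3B at 0.19 and NIK1 at 0.21), IAA29 (ADS1 at 0.24 and BZIP34 at 0.31) and IAA6 (SLAH3 and LUP1, both at 0.28). These members also varied most over the libraries. Their own root mean squares were 0.50, 0.74 and 0.54, against 0.18 (IAA7) to 0.48 (IAA17) for the others. The distances are not scaled by this variation, so they do not rank how well the profiles match. Among the 10 members, IAA7 and IAA19 were the closest pair, at 0.13, and both varied little over the libraries (0.18 and 0.21).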

How the data were processed

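Each library had 1 FPKM value per gene, made and deposited by the authors. HISAT2 2.0.4 and TAIR10 are named, per the submitters' processing notes, while the counting program, annotation release and use of strand were not given in the sources used here. Low values showed no fixed step worth 1 read (at most 2.05% of ratios shared a 0.01 log2 step), so the depth and its precision are unknown. Symbols, loci and promoters came from RefSeq's TAIR10.1, which 32548 of the 32833 table genes matched.

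The members, gene lists and tests were chosen with earlier results of these data known. A gene was kept if 3 or more of the 12 libraries reached 1 FPKM (19110 genes). limma 3.58.1 in R 4.3.3 was run on log2(FPKM + 1) over all libraries with genotype as the only term and an intensity trend, with 8 residual degrees of freedom. P-values were 2-sided and adjusted by the Benjamini-Hochberg method over all genes kept, separately for 6 comparisons. An adjusted p below 0.05 was called a rise or fall. Neighbour ratios used exact permutation tests (SciPy 1.17.1). The scripts were tested on simulated data. Figures used matplotlib 3.10.9.

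The genes named were all 10 members, CRWN1 and CRWN4, up to 3 genes per auxin list and comparison with the smallest adjusted p, and 2 nearest profiles per member that passed in any comparison of the values as deposited, which leaves out IAA4. IAA28, MUTE, FAMA, TMM and KAT2, and AFB4, AFB5, IAA9, PIN7 and SAUR9 where outside that rule, were chosen after their values were seen. Alternatives were pseudocounts of 0.1 and 5, no filter or one of 5 FPKM, 3 other scalings (a common total as in TPM, median ratios, quantiles), limma with no trend, with array weights, with a replicate block or fitted to only the 2 genotypes compared, and each library left out in turn.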

Additional observations from a re-analysis of the deposited data

Results flagged for a closer look

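IAA2 was set apart by a difference between the triple mutants. Its log2 change from the double mutant was 0.19 in the pnet2_b triple mutant and -0.44 in the pnet2_a triple mutant, and the tested difference between them was 0.63 (SE 0.12, limma adjusted p = 0.014, higher in 3 of 3 pnet2_b libraries than in any pnet2_a library). The double mutant libraries used for both changes cancel from this difference. Over 23 alternatives its adjusted p ran from 0.00279 to 0.0697.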

How the results depend on the processing

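For the 60 member results, 1282 of 1368 alternative values kept their direction and side of the threshold, 51 lost a call, 20 gained one and 15 reversed in sign, none of the reversed being a change called at first. Reversals by median-ratio scaling and quantile normalization were IAA2 with pnet2_b against the double mutant (-0.056 and -0.013), IAA19 with pnet2_b against WT (-0.07 and -0.17) and IAA1 between the triple mutants (-0.001 and -0.021). With TPM, IAA7 with pnet2_b against WT was 0.027. With 1 library left out, signs turned within these ranges: IAA7 (-0.066 to 0.014) and IAA4 (-0.31 to 0.02) with pnet2_b against WT, IAA4 (-0.17 to 0.16) and IAA6 (-0.012 to 0.60) in the double mutant against WT, and IAA6 (-0.26 to 0.018) and IAA3 (-0.25 to 0.11) between the triple mutants. The log2 ratio of IAA2 to IAA7 in the double mutant against WT differed by -0.006 with a pseudocount of 1. The cause was not tested.

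Members called in the double mutant against WT were 0 with no trend and 0 on the 2 genotypes compared (0 to 1 with a library left out). In the pnet2_a triple mutant against WT they were 10 with quantile normalization, where 6705 of the 19110 genes were called. With a pseudocount of 0.1, 4 members were called in the pnet2_b triple mutant against WT, where 8955 of the 19110 genes were called. Between the triple mutants the members called were 2 with array weights and 0 to 1 with a library left out. All genes called in the double mutant against WT numbered 574, or 419 with no trend and 175 on the 2 genotypes compared (301 to 689 with a library left out). Between the triple mutants they numbered 550, or 201 with no trend, 1150 with array weights and 1023 on the 2 genotypes compared (113 to 648 with a library left out). A filter of 5 FPKM left IAA6 and IAA29 untested.

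Same-numbered libraries did not deviate together (correlations of -0.08 to 0.07 over 18 pairs), so no pairing by replicate number was seen. These values cannot show whether same-numbered samples were grown or prepared together. A replicate block changed no member call: 9, 7, 1, 6, 7 and 1 members were called with the block in the 6 comparisons. Depth is unknown, which limits what can be said of IAA29 and IAA6, near or below 1 FPKM in most triple mutant libraries.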

Other observations

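Between the triple mutants, 5 of the 92 kept genes of the auxin lists passed, or 5.43%, where 2.88% of all genes did. All 5 were higher in the pnet2_b triple mutant, as were 2.12% of all genes. After median-ratio scaling 1 was higher and 1, PIN7, lower, beside 0.691% and 2.03% of all genes. The response factor genes ARF1, ARF2 and ARF6 differed by log2 changes of 0.36, 0.25 and 0.35 (limma adjusted p = 0.0362, 0.038 and 0.0478), and none of the 3 passed after median-ratio scaling. LAX2, an auxin influx carrier, had 6.67 ± 0.540 FPKM in the pnet2_b triple mutant and 4.27 ± 0.991 FPKM in the pnet2_a triple mutant (SD, n = 3 each; limma adjusted p = 0.0416), and did not pass after that scaling either. PAR1, a shade-induced repressor of elongation, had 4.29 ± 0.144 FPKM in the pnet2_b triple mutant and 2.304 ± 0.533 FPKM in the pnet2_a triple mutant (SD, n = 3 each; limma adjusted p = 0.0211) and passed under both scalings.

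Against WT, 4 of 5 TOPLESS genes rose in the pnet2_a triple mutant and 5 of 5 in the pnet2_b triple mutant, where 25.4% and 38.4% of all genes rose. After median-ratio scaling 3 rose in each, where 18.8% and 20.3% of all genes rose. TPR3 had 6.67 ± 0.429 and 8.89 ± 0.151 FPKM in the pnet2_a and pnet2_b triple mutants, against 3.39 ± 0.501 FPKM in WT (SD, n = 3 each; limma adjusted p = 4.52e-05 and 7.79e-07). In the double mutant against WT, 3 of the 92 genes passed, or 3.26%, near the 3.0% of all genes. They were higher, as were 2.41% of all genes, and were AFB4, PIF5 and ABCB4, the last listed at 0 in part of the WT libraries. AFB4 had 8.95 ± 0.992 FPKM in the double mutant and 6.35 ± 0.392 FPKM in WT, and PIF5 had 59.6 ± 0.913 and 48.8 ± 2.47 FPKM in the double mutant and WT (SD, n = 3 each; limma adjusted p = 0.0393 and 0.0356).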
